A study of Mus musculus with 30 samples.

Results

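Innate-like and γδ T cells are a minor fraction of mouse spleen, and here they were picked out of 4 single-cell RNA libraries by a rule on transcripts. A cell was a member when it held at least 2 unique molecular identifiers (UMIs, counts of distinct RNA molecules) of Cd3e, Cd3d and Cd3g together and at least 2 of Zbtb16, Trdc, Tcrg-C1 and Tcrg-C2 together. It also had no UMI of Cd8a, Cd8b1 or Foxp3 and at most 2 of the B cell genes Cd79a, Cd79b and Ms4a1. Of 46886 cells kept, 341 met the rule. They fell into 174 cells with Zbtb16 and no Trdc (Zbtb16 cells), 115 with Trdc and no Zbtb16 (Trdc cells), 27 with both transcripts and 25 with Tcrg-C transcripts only.

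The study compared mice whose Smc3 gene carries a conditional knockout (Smc3-cKO) with Smc3-WT mice. Red blood cells were removed from the spleen cells, and each genotype gave 2 libraries made with a 3′ droplet kit. The labels name neither the Cre line nor the deleted part of Smc3, and nothing in them ties a library to an animal of its own. P-values then reflect only how far the 2 libraries of a genotype lie from each other, and that distance may be technical. An age of 6 to 8 weeks is stated for the mice whose dendritic cells were sorted. Smc3 encodes a core subunit of the cohesin ring. In members it had 127 and 123 CPM (the gene's UMIs scaled to a total of 1000000 UMIs over a population in a library) in Smc3-cKO libraries, against 110 and 143 CPM in Smc3-WT libraries. The levels overlapped, with a log2 change of -0.07 (SE 0.33). A 3′ tag outside the deleted part would check nothing, and the labels do not place that part.

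Zbtb16 encodes PLZF, a zinc finger factor that gives natural killer T (NKT) and mucosal-associated invariant T cells their ready, effector-like state. γδ T cells use a receptor built from the Trdc and Tcrg loci in place of α and β chains, and some of them also make PLZF. Both kinds of cell can respond to cytokines without new priming, partly through the IL-2 and IL-15 receptor β chain encoded by Il2rb. They are commonly described as type 1 (T-bet, interferon γ), type 2 (GATA3, IL-4) or type 17 (IL-23 receptor, IL-17) cells.

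The libraries held 9074 to 16096 cell barcodes and 40367056 to 51299056 UMIs each. Members held 204069 and 518389 UMIs in Smc3-cKO replicates 1 and 2, against 191740 and 518227 in Smc3-WT replicates 1 and 2. Replicate 1 of each genotype stood apart from replicate 2. Haemoglobin transcripts summed to 11643 and 230 CPM in members of Smc3-cKO replicates 1 and 2, against 25811 and 60 CPM in Smc3-WT replicates 1 and 2. The median mitochondrial share of members was 4.64% and 3.49% in Smc3-cKO libraries, against 6.01% and 2.84% in Smc3-WT libraries. Any pair of libraries shared 36 to 61 barcodes, and no shared barcode was a member in more than 1 library.

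At the depth sequenced, members made up a similar share of the T cells in every library. They were 3.59% (36 of 1002) and 4.21% (131 of 3112) of T cells in Smc3-cKO libraries, against 3.62% (53 of 1464) and 4.43% (121 of 2734) in Smc3-WT libraries. The exact Clopper-Pearson 95% intervals ran from 2.53 to 4.94% and 3.53 to 4.98% in Smc3-cKO, and from 2.72 to 4.71% and 3.69 to 5.27% in Smc3-WT. These intervals cover counting error only. The mean was 3.90 ± 0.436% in Smc3-cKO and 4.02 ± 0.570% in Smc3-WT (SD, n = 2 each). The 2 genotypes overlapped (two-sided exact permutation p = 0.667). Of all cells kept, members were 0.735 ± 0.326% in Smc3-cKO and 0.651 ± 0.307% in Smc3-WT (exact permutation p = 0.667), with the lower share in replicate 1 of both genotypes. Members had a median depth of 5140.5 and 3546 UMIs per cell in Smc3-cKO libraries, against 3129 and 3844 in Smc3-WT libraries. Cells were also thinned to 1500 UMIs each and gated again. The share of T cells was then 1.90 ± 0.901% in Smc3-cKO and 2.47 ± 0.233% in Smc3-WT. The genotypes still overlapped (exact permutation p = 0.667), but the Smc3-cKO libraries lay further from each other. With 2 libraries against 2 the smallest p possible is 0.333, so no share could pass 0.05.

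The shares of Zbtb16 cells and Trdc cells among members differed between replicates in both genotypes. They rest on 36 to 131 members a library, so their counting error is wider than that of the share of T cells. Zbtb16 cells were 36.1% and 52.7% of members in Smc3-cKO libraries, against 45.3% and 56.2% in Smc3-WT libraries. Trdc cells were 47.2% and 34.4% in Smc3-cKO, against 37.7% and 27.3% in Smc3-WT. Both shares overlapped between genotypes, and replicate 1 had fewer Zbtb16 cells and more Trdc cells than replicate 2 in both. Cells with both transcripts were 16.7% and 6.11% of members in Smc3-cKO libraries, against 7.55% and 7.44% in Smc3-WT libraries. Cells with Tcrg-C transcripts only were 0% and 6.87% in Smc3-cKO, against 9.43% and 9.09% in Smc3-WT. The 0 of 36 cells in Smc3-cKO replicate 1 allows a share of up to 8.33%. For these cells the genotypes did not overlap, and the exact permutation p was 0.333, the smallest it can be. The Smc3-cKO minus Smc3-WT difference was -5.83 percentage points, but -0.142 after thinning to 1500 UMIs and -3.13 with at least 3 Cd3 UMIs, and the genotypes then overlapped (exact permutation p = 1 for both). Over the 9 member shares tested between genotypes, the Benjamini-Hochberg adjusted p was at least 0.857.

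**Figure D1:**
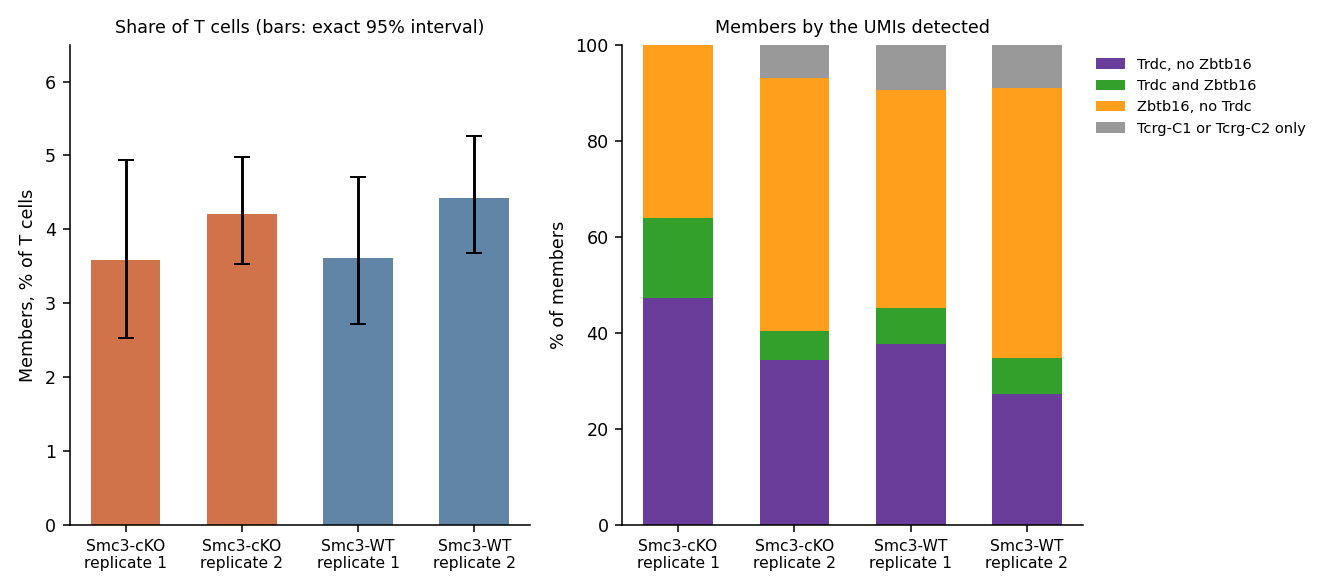
Left, members in percent of T cells per library, as bars with exact 95% binomial intervals. Right, stacked bars of the kinds of member in percent of members, with Smc3-cKO libraries left of Smc3-WT libraries in both panels. The share of T cells lies between 3.59% and 4.43% in all 4 libraries, while Trdc cells range from 27.3% to 47.2% of members.

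Il2rb was the only marker of the label that the rule did not use, and it was higher in members than in other T cells. It had 515 and 704 CPM in members of Smc3-cKO libraries, against 386 and 473 CPM in Smc3-WT libraries. In other T cells, defined by the same gates but with no UMI of the 4 rule genes (4520 cells), it had 85.5 and 140 CPM in Smc3-cKO libraries, against 77.9 and 92.9 CPM in Smc3-WT libraries. Members were above other T cells in 4 of 4 libraries. An Il2rb UMI was found in 72.1% of members and 17.6% of other T cells, at median depths of 3692 and 3231 UMIs per cell. The share was 32.7% in CD8 T cells and 77.7% in NK cells, at median depths of 3927 and 2803 UMIs. Il2rb thus did not set members apart from NK cells. The share was 1.82% in B cells (427 of 23470), which should lack the gene. By library it was 2.25% and 1.02% in Smc3-cKO, against 3.60% and 1.12% in Smc3-WT. A UMI of Trac, Trbc1 or Trbc2 was found in 5.22% and 3.25% of B cells in Smc3-cKO libraries, against 22.5% and 4.21% in Smc3-WT libraries. T cell RNA in B cells was thus highest in Smc3-WT replicate 1. The part of such stray RNA in the genotype values of members was not tested.

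Members held few UMIs of Ncr1 and Gzma, genes of NK cells, which share many receptors with them. The NK list that holds these 2 genes and Klrb1c was nonetheless higher in members than in other T cells. It summed to 755 and 731 CPM in members of Smc3-cKO libraries, against 647 and 560 CPM in Smc3-WT libraries. In other T cells it summed to 204 and 165 CPM in Smc3-cKO libraries, against 234 and 181 CPM in Smc3-WT libraries. Ncr1, which encodes the NK receptor NKp46, had a UMI in 2.53 ± 0.345% of members in Smc3-cKO and 3.13 ± 0.915% in Smc3-WT (SD, n = 2 each). NK cells were chosen with no UMI of the Cd3 genes and at least 2 UMIs of Ncr1 and Klrb1c together. They also had at most 2 UMIs of the B cell genes. Their Ncr1 shares, 93.7 ± 1.91% in Smc3-cKO and 93.8 ± 0.204% in Smc3-WT, are thus set by that choice. In B cells the shares were 0.597 ± 0.318% in Smc3-cKO and 0.827 ± 0.625% in Smc3-WT. In other T cells they were 0.547 ± 0.242% in Smc3-cKO and 1.17 ± 0.543% in Smc3-WT, below those of members. Gzma, a granzyme abundant in NK cells, had 9.80 and 0 CPM in members of Smc3-cKO libraries, against 36.5 and 23.2 CPM in Smc3-WT libraries, while its mean in NK cells was 2152 CPM. NK cells were not free of the rule's genes. A Trdc UMI was found in 13.2 ± 0.753% of NK cells in Smc3-cKO and 13.3 ± 0.878% in Smc3-WT, and a Zbtb16 UMI in 18.3 ± 1.03% in Smc3-cKO and 13.7 ± 2.28% in Smc3-WT. In B cells a Trdc UMI was found in 0.107% of cells in Smc3-cKO and 0.351% in Smc3-WT.

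There were 98 members with exactly 2 UMIs of the 4 rule genes, and 162 T cells just outside with 1. The type 1 list summed to 2232 CPM in the 243 members with 3 or more UMIs, 2820 CPM in the members with 2 and 2645 CPM in the cells with 1, beside 540 CPM in other T cells. The naive and recirculating list summed to 3263 CPM in the members with 3 or more UMIs, 3583 CPM in the members with 2 and 4484 CPM in the cells with 1, beside 6910 CPM in other T cells. On the type 1 list the cells just outside stood above the members with 3 or more UMIs.

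Receptor transcripts beyond the rule differed between the kinds of member. Tcrg-C4, a γ chain constant region, had 274 and 204 CPM in members of Smc3-cKO libraries, against 156 and 239 CPM in Smc3-WT libraries, with no more than 4.92 CPM in other T cells of any library. It had a UMI in 60 of 115 Trdc cells, 17 of 27 cells with both transcripts, 46 of 174 Zbtb16 cells and 25 of 4520 other T cells. Trac, the α chain constant region, showed the opposite lean, with a UMI in 21 of 115 Trdc cells, 104 of 174 Zbtb16 cells and 2636 of 4520 other T cells. Cd4, which encodes the co-receptor for MHC class II, had a UMI in 6 of 115 Trdc cells and 49 of 174 Zbtb16 cells. Of the β chain constant regions, Trbc2 had a UMI in 68 of 115 Trdc cells and 133 of 174 Zbtb16 cells, and Trbc1 in 59 of 115 Trdc cells and 91 of 174 Zbtb16 cells. Tcrg-C1 and Tcrg-C2 are near-identical copies, as are Trbc1 and Trbc2, so the split of counts between copies is uncertain.

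Transcripts of variable segments were few. Trav11, the α chain segment of the invariant NKT receptor, had 4.90 and 1.93 CPM in members of Smc3-cKO libraries, against 15.6 and 3.86 CPM in Smc3-WT libraries, and was at 0 in other T cells of all 4 libraries. Traj18, the joining segment of that receptor, had 0 and 3 UMIs in members of Smc3-cKO libraries, against 4 and 1 in Smc3-WT libraries. A UMI of either segment was found in 15 of 341 members and 35 of 4520 other T cells. Trdv4, a δ chain segment, had a UMI in 7 of 27 cells with both transcripts, 0 of 115 Trdc cells and 2 of 174 Zbtb16 cells. Trgv2, a γ chain segment, had a UMI in 24 of 115 Trdc cells and 8 of 25 cells with Tcrg-C transcripts only. It was not confined to them. A UMI of Trdv4 or Trgv2 was found in 19 of 174 Zbtb16 cells and 12 of 27 cells with both transcripts. Receptor clones were not read, so these counts name no receptor.

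Cxcr6 and Klrb1c were among the genes that stood highest in members over other T cells. Since the rule chose the cells on their expression, the contrast is a description with no test. Of 4246 genes with at least 50 CPM in either population, 844 (19.9%) were higher in members in all 4 libraries and 762 (17.9%) were lower. Cxcr6, a chemokine receptor of tissue-homing and NKT cells, had 235 and 386 CPM in members of Smc3-cKO libraries, against 349 and 309 CPM in Smc3-WT libraries, with 10.1 to 18.9 CPM in other T cells. Klrb1c, which encodes NK1.1, had 167 and 280 CPM in members of Smc3-cKO libraries, against 203 and 164 CPM in Smc3-WT libraries. Other T cells had 12.3 to 19.9 CPM of it, and the populations did not overlap for either gene.

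Among the 15 genes that stood highest over other T cells were NK receptors and type 17 genes as well as genes of no listed role here. The C-type lectin receptor Klrc1 averaged 150 CPM in members and 7.09 CPM in other T cells, and the related Klri1 averaged 104 CPM in members and 6.13 CPM in other T cells. Il23r, the IL-23 receptor, averaged 133 CPM in members and 1.47 CPM in other T cells, and Cd163l1, a scavenger receptor of type 17 γδ T cells, averaged 88.5 CPM in members and 1.29 CPM in other T cells. The transcription factor gene Sox5 averaged 471 CPM in members and 31.1 CPM in other T cells. Prdm16, another factor gene, averaged 90.5 CPM in members and 3.34 CPM in other T cells. The lipid flippase gene Atp8a2 averaged 538 CPM in members and 19.9 CPM in other T cells. Adam12, Clnk, Abi3bp, 5830411N06Rik and Gm36723 completed the group with Tcrg-C4, Cxcr6 and Klrb1c.

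The genes that stood lowest against other T cells included Ccr7 and Il6ra. Ccr7, the lymph node homing receptor, had 29.4 and 17.4 CPM in members of Smc3-cKO libraries, against 41.7 and 34.7 CPM in Smc3-WT libraries, with 119 to 160 CPM in other T cells. Il6ra, the IL-6 receptor α chain, averaged 65.6 CPM in members and 379 CPM in other T cells. A pair of sialyltransferase genes were in the group: St8sia1 averaged 34.5 CPM in members and 268 CPM in other T cells, and St8sia6 averaged 38.7 CPM in members and 234 CPM in other T cells. The integrin gene Itga6 averaged 43.2 CPM in members and 225 CPM in other T cells. Tgfbr3, a TGF-β co-receptor, averaged 62.7 CPM in members and 280 CPM in other T cells. Dapl1, Cd4, Myo10, Itm2a, Vipr1, Gm14085, Gm16083, Gm20275 and A630023P12Rik were the others.

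Factors of type 1 and type 2 cells were present above other T cells in each library. Tbx21, which encodes T-bet, had 196 and 303 CPM in members of Smc3-cKO libraries, against 203 and 203 CPM in Smc3-WT libraries, with 23.5 to 53.1 CPM in other T cells. Gata3 had 103 and 181 CPM in members of Smc3-cKO libraries, against 99.1 and 151 CPM in Smc3-WT libraries, with 52.9 to 121 CPM in other T cells. Members and other T cells did not overlap across libraries for Tbx21 but did for Gata3. Lef1, a factor of naive T cells, went the other way, with 632 and 764 CPM in members of Smc3-cKO libraries, against 923 and 886 CPM in Smc3-WT libraries, and 1906 to 2226 CPM in other T cells. Ifng had at most 9.65 CPM and Il17a 2 UMIs in all in members.

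The type 1 list was the programme that set members apart cell by cell. At least 2 UMIs of it were found in 75% and 89.3% of members in Smc3-cKO libraries, against 67.9% and 76.9% in Smc3-WT libraries. The mean was 82.2 ± 10.1% in Smc3-cKO and 72.4 ± 6.32% in Smc3-WT (SD, n = 2 each), and the genotypes overlapped (exact permutation p = 0.667). After cells were thinned to 1500 UMIs, which left out 1 member in each of Smc3-cKO replicate 1 and Smc3-WT replicate 2, the means were 64.6% in Smc3-cKO and 52.5% in Smc3-WT. Among other T cells the unthinned shares were 20.1% in Smc3-cKO and 18.3% in Smc3-WT, in NK cells 98.9% in Smc3-cKO and 98.6% in Smc3-WT, and in B cells 3.89% in Smc3-cKO and 5.49% in Smc3-WT. The same tally for the type 17 and naive lists reached 52.0% or more and 87.3% or more in B cells, so it was read as background for those lists.

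**Figure D2:**
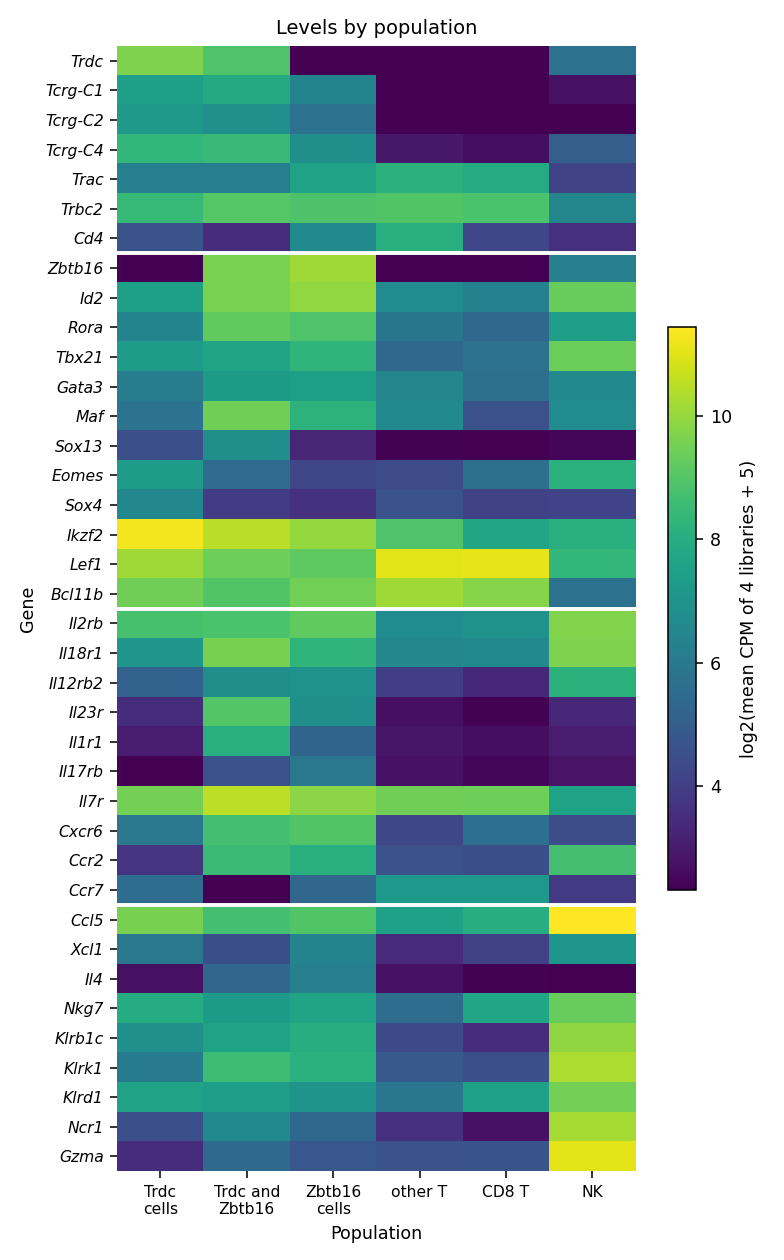
Heat map of mean levels over the 4 libraries, as log2(CPM + 5), of listed genes (rows) in 3 kinds of member and in other T, CD8 T and NK cells (columns). Klrb1c and Il2rb are brighter in the 3 kinds of member than in other T cells, and Lef1 and Ccr7 are darker. Ncr1, which with Klrb1c was used to choose the NK cells, and Gzma are bright in NK cells.

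The Trdc cells and the Zbtb16 cells differed at many genes that the split did not use. The split was made on expression, so the values are a description with no test. Of 4480 genes with at least 50 CPM in either kind, 540 (12.1%) were higher in Trdc cells in all 4 libraries and 550 (12.3%) were lower. Trdc cells were higher in Hdac9, a class IIa histone deacetylase, and in the factor genes Sox5, Eomes, Sox4, Myb and Prdm16. Zbtb16 cells were higher in the chemokine receptor gene Ccr2, in Il4, Il17rb, Il2ra and Il23r, and in Nrp1 and Atp8a2. Promoters are shown for the first genes in each direction that have an entry in the promoter table.

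The promoter windows come from RefSeq (build GRCm38.p6) and run from 250 bases before to 50 bases after a transcript start that its table lists, printed 5′ to 3′ on the gene's strand. For Nrp1 and Ccr2 that start lies inside the annotated gene, which begins at 128358591 for Nrp1 and 124101918 for Ccr2. Hdac9 is at chr12:34917046-34917345 on the minus strand, where the table lists 2 starts. Gpm6b is at chrX:166238693-166238992, Nrp1 at chr8:128358823-128359122 and Ccr2 at chr9:124101933-124102232, all on the plus strand. Capitals mark a match to the cores searched on both strands: GGTGTGA for T-box factors and AGATAA for GATA factors.
Hdac9: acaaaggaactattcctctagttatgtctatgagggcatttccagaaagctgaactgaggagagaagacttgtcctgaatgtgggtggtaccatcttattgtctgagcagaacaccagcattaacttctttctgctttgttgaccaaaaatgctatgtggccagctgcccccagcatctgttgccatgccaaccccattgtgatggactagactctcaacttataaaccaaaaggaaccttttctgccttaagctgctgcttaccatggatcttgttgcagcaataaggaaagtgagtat
Gpm6b: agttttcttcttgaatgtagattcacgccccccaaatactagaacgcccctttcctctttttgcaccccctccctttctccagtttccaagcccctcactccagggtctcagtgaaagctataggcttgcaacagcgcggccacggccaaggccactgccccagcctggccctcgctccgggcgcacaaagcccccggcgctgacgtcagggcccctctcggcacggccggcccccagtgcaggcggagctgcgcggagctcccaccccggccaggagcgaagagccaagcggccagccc
Nrp1: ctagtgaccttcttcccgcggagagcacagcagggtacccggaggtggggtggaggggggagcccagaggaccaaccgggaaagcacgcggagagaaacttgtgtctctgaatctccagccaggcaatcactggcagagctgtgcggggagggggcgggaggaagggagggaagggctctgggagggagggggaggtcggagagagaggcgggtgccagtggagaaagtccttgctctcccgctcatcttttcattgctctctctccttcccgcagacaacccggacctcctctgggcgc
Ccr2: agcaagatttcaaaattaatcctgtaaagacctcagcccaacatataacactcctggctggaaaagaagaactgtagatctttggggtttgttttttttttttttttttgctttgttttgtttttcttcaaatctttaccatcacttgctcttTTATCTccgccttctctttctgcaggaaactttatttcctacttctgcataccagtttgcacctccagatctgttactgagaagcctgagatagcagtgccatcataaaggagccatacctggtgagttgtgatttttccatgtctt
The Ccr2 window holds 1 GATA core, on the opposite strand. The windows of Hdac9, Gpm6b and Nrp1 hold neither core. Among 27025 promoter windows of the same length, 3.96% hold the T-box core and 11.4% the GATA core. A match in so common a motif describes the letters in the window and no site.

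Hdac9 had 666 and 1162 CPM in Trdc cells of Smc3-cKO libraries, against 2191 and 1416 CPM in those of Smc3-WT libraries. In Zbtb16 cells it had 13 and 51.9 CPM in Smc3-cKO libraries, against 37.4 and 30.4 CPM in Smc3-WT libraries. The 2 kinds of cell did not overlap, and a Hdac9 UMI was found in 42 of 115 Trdc cells and 13 of 174 Zbtb16 cells. The gene is also high in B cells, at 1139 CPM over all libraries. The B cell list summed to 615 and 540 CPM in Trdc cells of Smc3-cKO libraries, against 1531 and 903 CPM in Smc3-WT libraries. In Zbtb16 cells it summed to 535 and 1132 CPM in Smc3-cKO libraries, against 2142 and 595 CPM in Smc3-WT libraries. The part of B cell RNA in the Hdac9 values was not tested. Gpm6b, which encodes a membrane glycoprotein, had 384 and 13.7 CPM in Trdc cells of Smc3-cKO libraries, against 13.2 and 24.8 CPM in Smc3-WT libraries, so Smc3-cKO replicate 1 carried most of its level. Zbtb16 cells had 0 and 3.24 CPM of Gpm6b in Smc3-cKO libraries, against 0 and 0 CPM in Smc3-WT libraries.

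The factor genes Eomes and Sox5 were among the genes higher in Trdc cells. Eomes, a T-box factor of memory and cytotoxic lymphocytes, had 192 and 103 CPM in Trdc cells of Smc3-cKO libraries, against 26.4 and 323 CPM in Smc3-WT libraries. In Zbtb16 cells it had 26.1 and 3.24 CPM in Smc3-cKO libraries, against 24.9 and 3.38 CPM in Smc3-WT libraries, and Smc3-WT replicate 1 was the library with the least distance between the kinds. Sox5 had 935 and 349 CPM in Trdc cells of Smc3-cKO libraries, against 1280 and 588 CPM in Smc3-WT libraries. In Zbtb16 cells Sox5 had 104 and 110 CPM in Smc3-cKO libraries, against 12.5 and 6.76 CPM in Smc3-WT libraries. Of the listed genes, Tox averaged 2363 CPM in Trdc cells and 523 CPM in Zbtb16 cells, and Ikzf2, which encodes Helios, averaged 2462 CPM in Trdc cells and 1008 CPM in Zbtb16 cells. Gria3, Arpp21, Ptprm, Crtam, Gm30948, Fam169b, Ift80 and 2610307P16Rik were the other genes of the leading group.

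Ccr2, Nrp1 and Il4 were among the genes lower in Trdc cells. Ccr2 had 12.8 and 20.5 CPM in Trdc cells of Smc3-cKO libraries, against 0 and 0 CPM in Smc3-WT libraries, while Zbtb16 cells had 235 and 214 CPM in Smc3-cKO libraries, against 361 and 220 CPM in Smc3-WT libraries. Nrp1, which encodes neuropilin 1, had no UMI in Trdc cells of any library and 130, 77.9, 174 and 152 CPM in Zbtb16 cells of Smc3-cKO replicates 1 and 2 and Smc3-WT replicates 1 and 2. Il4, the type 2 cytokine, had a UMI in 1 of 115 Trdc cells, 34 of 174 Zbtb16 cells and 22 of 4520 other T cells. In Zbtb16 cells Il4 had 91.3 and 68.1 CPM in Smc3-cKO libraries, against 62.3 and 67.6 CPM in Smc3-WT libraries. Il17rb, the IL-25 receptor, had a UMI in 0 of 115 Trdc cells, which allows a share of up to 2.61%, and in 29 of 174 Zbtb16 cells. Cxcr6 averaged 55.8 CPM in Trdc cells and 495 CPM in Zbtb16 cells, and Id2, an inhibitor of E proteins that marks effector cells, averaged 175 CPM in Trdc cells and 991 CPM in Zbtb16 cells. Tmem273, Npas2, Entpd1, Trpm6, Gm36723, Adam12 and Fgl2 were other genes of the group.

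**Figure D3:**
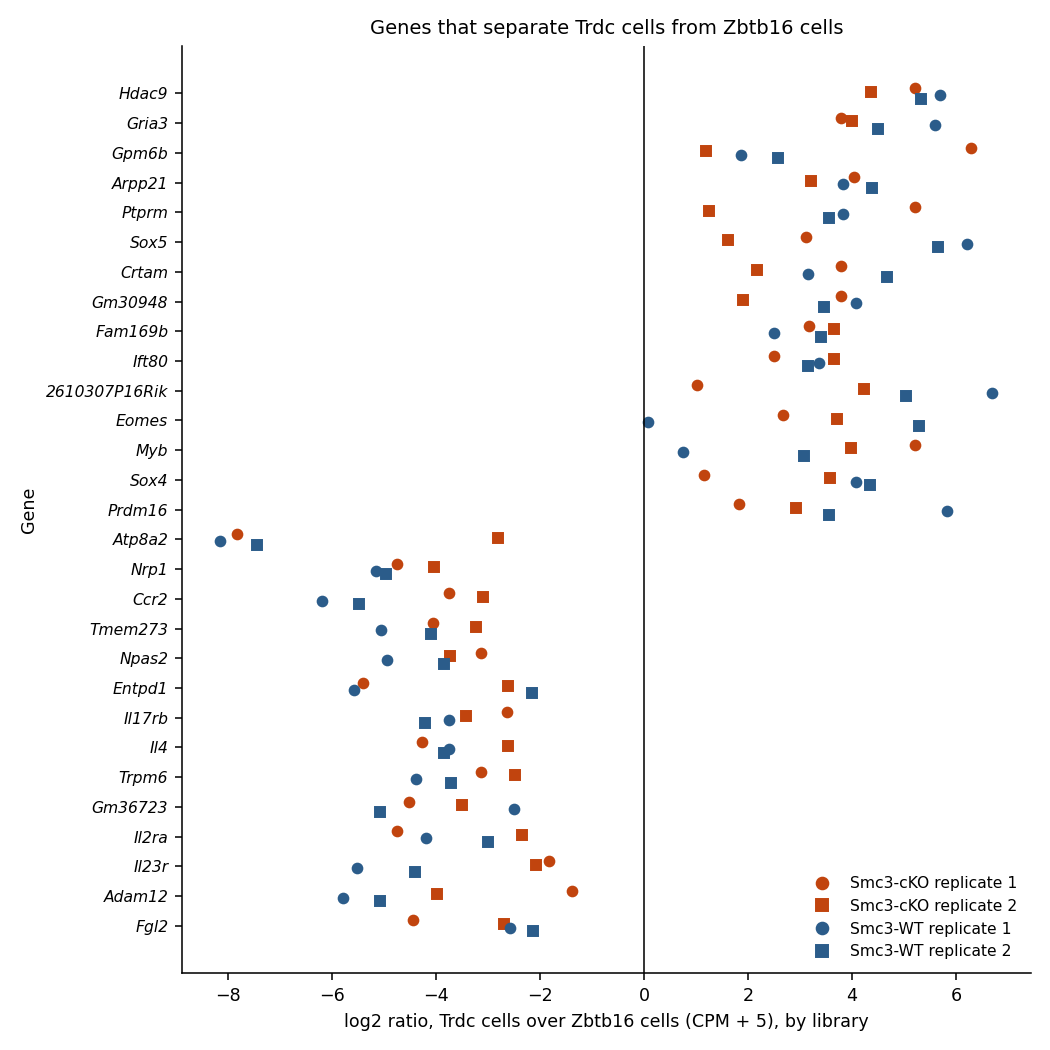
Log2 ratio of CPM (5 CPM added) in Trdc cells over Zbtb16 cells for the leading genes in each direction; points are the 4 libraries, with Smc3-cKO in orange and Smc3-WT in blue. Hdac9 lies far to the right and Atp8a2, Nrp1 and Ccr2 far to the left in all 4 libraries, while Eomes and Gpm6b scatter between libraries.

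The 27 cells with both Zbtb16 and Trdc held most of the type 17 transcripts of the Trdc-bearing cells. Il23r (chr6:67422932-67491855, GRCm38.p6) had 993 and 424 CPM in these cells of Smc3-cKO libraries, against 0 and 586 CPM in Smc3-WT libraries. A UMI of it was found in 11 of 27 cells with both transcripts, 1 of 115 Trdc cells, 10 of 174 Zbtb16 cells and 10 of 4520 other T cells. Smc3-WT replicate 1 was at 0, with 4 such cells in which a count of 0 allows up to 154 CPM.

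Other genes chosen for a known role in γδ or IL-17-producing T cells were also found in them. Cd163l1 (chr7:140197218-140231145) had 689 and 248 CPM in cells with both transcripts of Smc3-cKO libraries, against 0 and 732 CPM in Smc3-WT libraries. Il1r1, the IL-1 receptor, had 486 and 106 CPM there in Smc3-cKO libraries, against 0 and 439 CPM in Smc3-WT libraries. Sox13, a factor gene of γδ T cells, had a UMI in 10 of 27 cells with both transcripts, 6 of 115 Trdc cells and 3 of 174 Zbtb16 cells. Maf, which encodes a factor of IL-17-producing and follicular T cells, had 750 and 1238 CPM in cells with both transcripts of Smc3-cKO libraries, against 102 and 683 CPM in Smc3-WT libraries. Blk had a UMI in 12 of 27 cells with both transcripts. The naive marker Ccr7 had no UMI in the cells with both transcripts, which allows up to 21.7 CPM. The naive and recirculating list, of which Ccr7 is a part, was present in them. It summed to 2593 and 2157 CPM in Smc3-cKO libraries, against 3021 and 2489 CPM in Smc3-WT libraries. Over the 4 libraries it summed to 2100 to 3135 CPM in Zbtb16 cells and 3551 to 4968 CPM in Trdc cells. These 27 cells are a small sample and the genes were picked out after their values were seen, so no test was made.

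The 25 cells with Tcrg-C transcripts only carried genes of both main kinds. Hdac9 had a UMI in 12 of 25 of them, beside 42 of 115 Trdc cells and 13 of 174 Zbtb16 cells. Il4 had a UMI in 4 of 25, and Trac in 15 of 25. Il2rb had a UMI in 20 of 25.

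**Figure D4:**
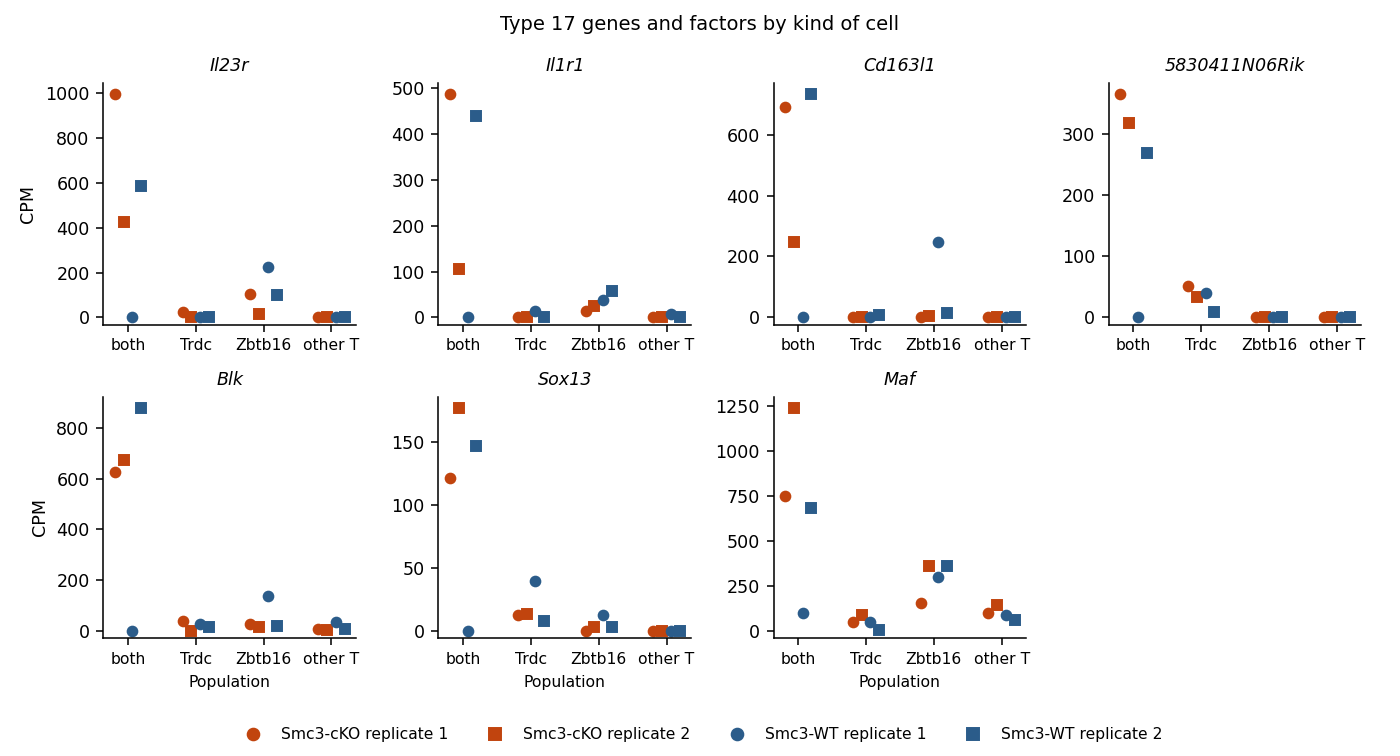
CPM of type 17 genes and factors in cells with both transcripts, Trdc cells, Zbtb16 cells and other T cells; each point is a library, with Smc3-cKO in orange and Smc3-WT in blue. Il23r and Cd163l1 stand highest in cells with both transcripts in Smc3-cKO replicates 1 and 2 and Smc3-WT replicate 2, and Smc3-WT replicate 1 is at 0.

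Between genotypes, no gene in members passed the test. Of 6088 genes tested with edgeR's quasi-likelihood test on UMIs summed per library, 0 (0%) had a Benjamini-Hochberg adjusted p under 0.05, and 88 (1.45%) were under 0.05 before adjustment; with DESeq2 these counts were 0 and 22. Without Smc3-cKO replicate 1 the edgeR count was 14, and with no filter on low counts it was 19. In other T cells 0 of 11239 genes passed, with 291 at an unadjusted p under 0.05. Zbtb16 and Trdc cells were not tested by genotype, since Smc3-cKO replicate 1 held 13 and 17 of them and 20 were needed. Both Smc3-cKO libraries were above both Smc3-WT libraries for 895 genes (14.7%) and below them for 662 (10.9%). With 2 libraries a genotype these non-overlapping genes are given as values only.

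Zbtb16, Trdc and Tcrg-C1 are genes of the rule, which partly sets their levels in members, so they are given as a description. Zbtb16 (chr9:48651797-48836225) had 490 and 741 CPM in members of Smc3-cKO libraries, against 610 and 820 CPM in Smc3-WT libraries. Trdc (chr14:54142851-54146108, the δ constant region) had 314 and 318 CPM in Smc3-cKO libraries, against 318 and 262 CPM in Smc3-WT libraries. Tcrg-C1 had 162 and 127 CPM in Smc3-cKO libraries, against 151 and 131 CPM in Smc3-WT libraries. These 3 overlapped between genotypes. Il2rb, with the values above, did not overlap, and its log2 change was 0.48 (SE 0.35), within the spread of the fit. Trgv2 had 19.6 and 30.9 CPM in Smc3-cKO libraries, against 46.9 and 88.8 CPM in Smc3-WT libraries, a log2 change of -1.44 (SE 0.53) that did not pass (edgeR adjusted p = 0.9995).

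The gene with the lowest p was Lyz2, which encodes a lysozyme of myeloid cells (chr10:117277541-117282272). It had 260 and 181 CPM in members of Smc3-cKO libraries, against 46.9 and 38.6 CPM in Smc3-WT libraries. Both Smc3-cKO libraries were above both Smc3-WT libraries, with a log2 change of 2.34 (SE 0.37), which did not pass (edgeR adjusted p = 0.471). A Lyz2 UMI was found in 5 and 11 members of Smc3-cKO libraries, against 8 and 9 of Smc3-WT libraries, and single cells held up to 23 and 45 UMIs in Smc3-cKO and up to 2 and 10 in Smc3-WT. The myeloid list, of which Lyz2 is a part, was also higher in members of Smc3-cKO libraries. Its sum was 1235 and 772 CPM in members of Smc3-cKO libraries, against 553 and 411 CPM in Smc3-WT libraries, and 297 and 241 CPM in other T cells of Smc3-cKO libraries, against 374 and 208 CPM in Smc3-WT libraries. Of its 5 genes tested, 4 had both Smc3-cKO libraries above both Smc3-WT libraries: Lyz2, Ccr2, Ly6c2 and the integrin gene Itgam. Over all genes tested 14.7% were apart above. Lyz2 and Itgam were named partly for being apart, and Ccr2 and Ly6c2 are also T cell genes. With called doublets removed the log2 change of Lyz2 was 1.20, and without Smc3-cKO replicate 1 it was 2.08 and passed. The neutrophil list summed to 44.1 and 4790 CPM in members of Smc3-cKO libraries, against 193 and 108 CPM in Smc3-WT libraries, and 1 cell of Smc3-cKO replicate 2 held 907 of its 996 S100a8 UMIs. The part of myeloid or neutrophil RNA in the Lyz2 values was not tested.

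Other genes near the top of the order did not pass either. 2610035D17Rik had 235 and 197 CPM in members of Smc3-cKO libraries, against 78.2 and 75.3 CPM in Smc3-WT libraries, a log2 change of 1.45 (SE 0.32). Plcb4, a phospholipase C gene, had 338 and 255 CPM in Smc3-cKO libraries, against 141 and 154 CPM in Smc3-WT libraries, a log2 change of 0.95 (SE 0.30). In other T cells the log2 change of Plcb4 was 1.64 (SE 0.30), so the direction was shared. Both genes were apart by genotype, and their edgeR adjusted p was 0.9995. Anxa2, Dscam, Bclaf3, Itgam, B4galnt1 and Gsr were others named in this direction, with log2 changes of 0.93 to 2.46 that did not pass.

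Genes on the lower side were also short of the threshold. St8sia6, a sialyltransferase gene that was low in members, had 0 and 17.4 CPM in members of Smc3-cKO libraries, against 67.8 and 69.5 CPM in Smc3-WT libraries, a log2 change of -2.56 (SE 0.71). St8sia1 had 19.6 and 15.4 CPM in Smc3-cKO libraries, against 46.9 and 56.0 CPM in Smc3-WT libraries, a log2 change of -1.64 (SE 0.56). Both were lower in members than in other T cells, and neither passed (edgeR adjusted p = 0.9995). Hdac9 had 270 and 394 CPM in members of Smc3-cKO libraries, against 939 and 523 CPM in Smc3-WT libraries, a log2 change of -1.14 (SE 0.40). Trdc cells, which held most of it, were 47.2% and 34.4% of members in Smc3-cKO libraries, against 37.7% and 27.3% in Smc3-WT libraries. The linker histone gene Hist1h1b and the topoisomerase gene Top2a had log2 changes of -2.17 (SE 0.60) and -1.15 (SE 0.40). Both rest on few cells. Hist1h1b had a UMI in 1 and 3 members of Smc3-cKO libraries, against 7 and 3 of Smc3-WT libraries. For Top2a these were 1 and 4 members in Smc3-cKO, against 8 and 8 in Smc3-WT. Of 8 cycling genes tested, 2 were apart above (Pcna and Mcm6) and 2 below (Top2a and Stmn1). Over all genes tested the shares were 14.7% above and 10.9% below. The cycling list summed to 897 and 1264 CPM in members of Smc3-cKO libraries, against 641 and 1494 CPM in Smc3-WT libraries, which overlapped. The light chain gene Iglc2 had 4.90 and 19.3 CPM in Smc3-cKO libraries, against 125 and 32.8 CPM in Smc3-WT libraries, and the B cell list summed to 510 and 899 CPM in Smc3-cKO libraries, against 1763 and 716 CPM in Smc3-WT libraries. The part of B cell RNA in it was not tested. Kansl1l, Oprm1 and Gm36975 were others named, with log2 changes of -1.57 to -0.93.

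By list, the programmes of these cells showed no gene past the threshold. Of 10 type 1 genes tested, 2 had both Smc3-cKO libraries above both Smc3-WT libraries (Il2rb and Ly6c2) and 0 below, and the list's median log2 change was 0.32, beside 0.01 over all genes tested. Ly6c2 also stands in the myeloid list. Of 7 NK genes tested, 3 were apart above (Fcer1g, Ncr1 and Klra7), with a median of 0.51. Ncr1 rests on very few cells, with a UMI in 1 and 3 members of Smc3-cKO libraries, against 2 and 3 of Smc3-WT libraries. The NK list summed to 755 and 731 CPM in members of Smc3-cKO libraries, against 647 and 560 CPM in Smc3-WT libraries, and the part of NK cell RNA in the type 1 values was not tested. Of 8 type 17 genes, 0 were apart in either direction, with a median of 0.24. Of 10 naive and recirculating genes, 0 were apart above and 3 below (Lef1, Actn1 and Ccr7), with a median of 0.04. Of 17 cytokine receptor genes, 3 were apart above (Il2rb, Il2rg and Il21r) and 1 below (Il17rb). Of 17 residency and migration genes, 5 were apart above, with Ccr2, Rgs2, Cd69 and Cxcr4 among them, and 0 below. Of 18 receptor signalling genes, 2 were apart above and 2 below. Of 12 cohesin genes, 0 were apart above and 2 below (Smc1a and Mau2), with a median of -0.10. Over all genes tested 14.7% were apart above and 10.9% below, and these lists are too short for their shares to be told from that. A list of genes drawn from earlier results on dendritic cells of the study had 5 of 11 tested genes apart above (Plcb4, Xdh, Dscam, Serpinb6b and Socs2) and 2 below, and it is not independent evidence of a direction.

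Among lists with at least 10 genes tested, the immediate early list had the largest share of genes apart above. These genes are switched on within minutes by stimulation and by cell handling. Of 11 tested, 7 (63.6%) had both Smc3-cKO libraries above both Smc3-WT libraries and 0 below, and the median log2 change was 0.65. Over all genes tested 14.7% were apart above and 10.9% below, with a median of 0.01. Jund had 279 and 343 CPM in members of Smc3-cKO libraries, against 67.8 and 268 CPM in Smc3-WT libraries, a log2 change of 0.76 (SE 0.47). Nfkbia, an inhibitor of NF-κB, had 108 and 162 CPM in Smc3-cKO libraries, against 57.4 and 102 CPM in Smc3-WT libraries, a log2 change of 0.69 (SE 0.39). Smc3-WT replicate 1 was the lowest library for both. The whole list summed to 887 and 1192 CPM in members of Smc3-cKO libraries, against 459 and 895 CPM in Smc3-WT libraries, which overlapped. In other T cells the sums were 800 and 1134 CPM in Smc3-cKO libraries, against 557 and 972 CPM in Smc3-WT libraries, so the same order of libraries was seen outside the members.

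**Figure D5:**
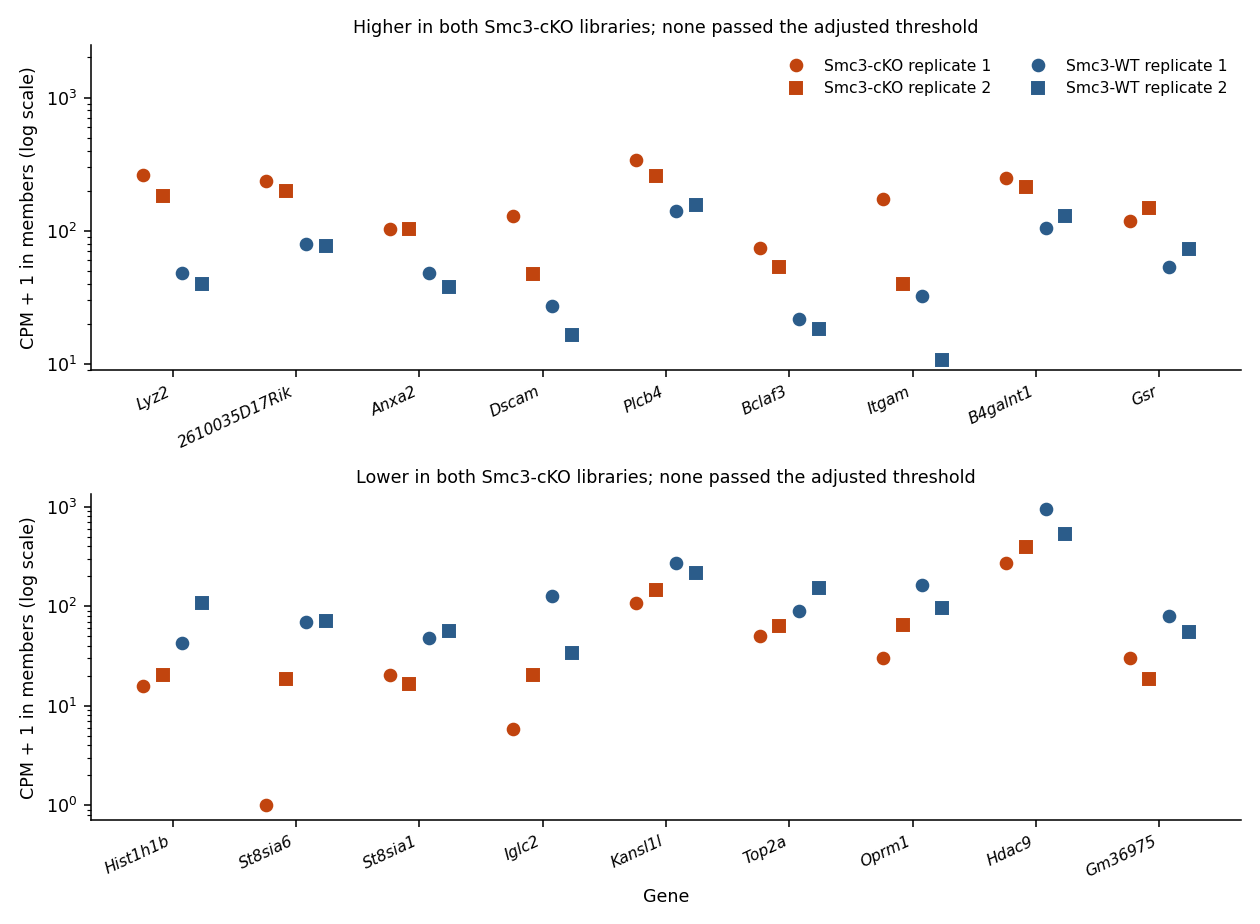
CPM + 1 on a log scale of the genes named in the genotype comparison, in members; each point is a library, with Smc3-cKO (orange) left of Smc3-WT (blue). Lyz2 stands at 260 and 181 CPM in Smc3-cKO, against 46.9 and 38.6 CPM in Smc3-WT, and no gene passed the adjusted threshold.

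The genotype change differed between members and other T cells for 2 of 10317 genes (0.0194%) in edgeR's interaction test with the library as a block, with 347 genes at an unadjusted p under 0.05. For Lyz2 the log2 change in members exceeded that in other T cells by 2.02 (SE 0.35, edgeR adjusted p = 0.0345). Other T cells had 84.3 and 58.7 CPM of Lyz2 in Smc3-cKO libraries, against 65.0 and 49.7 CPM in Smc3-WT libraries, so the distance lay in the members. For Ptprk, a receptor phosphatase gene (chr10:28074820-28597397), the difference was -7.83 (SE 1.25, edgeR adjusted p = 0.0256). Members had 4.90 and 0 CPM of Ptprk in Smc3-cKO libraries, against 26.1 and 83.0 CPM in Smc3-WT libraries, while other T cells had 5.85 and 14.7 CPM in Smc3-cKO libraries, against 2.27 and 1.70 CPM in Smc3-WT libraries. These values rest on very few cells: Ptprk had a UMI in 1 and 0 members of Smc3-cKO libraries, against 1 and 2 of Smc3-WT libraries, and 31 of its 43 UMIs in Smc3-WT replicate 2 lay in 1 cell. Ptprk lost its call without Smc3-cKO replicate 2 (-5.19) and without Smc3-WT replicate 2 (-6.50). With 1 library left out 10 to 49 genes passed. With called doublets removed no gene passed, and the difference was 1.37 for Lyz2 and -7.17 for Ptprk.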

How the data were processed

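Members, populations and gene lists were chosen with earlier results of these data known. The authors deposited raw UMI counts for each gene in each cell barcode; per the file headers, Cell Ranger 7.0.0 made them; mm10 is given per the submitters' processing notes, and whether intronic reads were counted is not given in the sources used here. Another 26 samples of the series were not analysed here. Barcodes under 200 genes or over 10% mitochondrial UMIs were left out. Doublets called with scanpy's Scrublet stayed in, 12 members among them. It called 1.03 to 6.41% of cells kept per library, against 7.26 to 12.9% expected, with 1.03% in Smc3-WT replicate 1, so removal was uneven. UMIs were summed per library and population and tested with edgeR 4.0.16 (filterByExpr, TMM, quasi-likelihood, Benjamini-Hochberg over all genes). A positive log2 change means higher in Smc3-cKO. On simulated counts with 178 changed genes tested in members, edgeR called 91 at a log2 change of 2 and 172 at 3. The simulation gave all genes the same dispersion and no difference between replicates, so it may overstate what the test can call here. DESeq2 1.42.0, other size factors, filters, stricter gates and left-out libraries were alternatives. Named genes were the 10 per direction with the lowest p among genes apart by genotype with 50 CPM or more, the 15 per direction with the largest ratio between populations, the markers, and the highest listed genes; other listed genes were named after their values were seen. Results for some genes are not reported here.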

Additional observations from a re-analysis of the deposited data

Results flagged for a closer look

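The genotype change in members differed from that in other T cells for 2 genes in edgeR's interaction test. For Lyz2 the log2 difference was 2.02 (SE 0.35, adjusted p = 0.0345), with 260 and 181 CPM in members of Smc3-cKO libraries, against 46.9 and 38.6 CPM in Smc3-WT libraries. A single cell held 45 of the 94 Lyz2 UMIs in Smc3-cKO replicate 2 and another held 23 of the 53 in Smc3-cKO replicate 1. For Ptprk the log2 difference was -7.83 (SE 1.25, adjusted p = 0.0256), a fitted value that depends on the prior count because members of Smc3-cKO libraries held 1 Ptprk UMI in all. Members of Smc3-WT libraries held 5 and 43 Ptprk UMIs in 3 cells.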

How the results depend on the processing

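The number of genes called between genotypes in members was 0 under DESeq2, other size factors and the stricter gates, and was 19 with no filter on low counts and 8 with the replicate number as a block. Leaving out 1 library gave 0 to 14 calls, with 14 without Smc3-cKO replicate 1. Of 269 values of the 20 named genes under alternatives, 0 changed sign and 11, of 6 genes, passed. The labels give replicates 1 and 2 to both genotypes but no shared day or animal, and deviations of same-numbered libraries correlated at 0.33 over 6088 genes, which over 2 pairs does not settle whether the numbers pair the libraries; the block left 0 calls in the interaction. The 2 interaction calls became 0 with DESeq2, 0 at 5% mitochondrial UMIs or less, 0 with doublets removed, 0 without Ncr1 cells and 1 with at least 3 Cd3 UMIs. They became 8 with at least 3 UMIs of the rule genes, 27 with no filter, and 10 to 49 with 1 library left out, where the lone library is assumed to vary like the others (20 and 49 with Smc3-cKO replicates 1 and 2 left out in turn, against 10 and 26 with Smc3-WT replicates 1 and 2 left out in turn). The Smc3-cKO minus Smc3-WT difference in the share of T cells was -0.122 percentage points, and -1.30 at 5% mitochondrial UMIs or less. After thinning it was -0.575. For Tcrg-C only cells it was -5.83, -9.72 at 5% mitochondrial UMIs or less and -0.142 after thinning, and for the naive programme 2.78 and -3.40 after thinning. With 1 library left out the difference ran from -0.146 to 0.315 for the share of kept cells, -0.525 to 0.281 of T cells, -14.6 to 1.93 for Zbtb16 cells, 1.85 to 14.7 for Trdc cells, -1.39 to 9.17 for both transcripts, -9.26 to -2.39 for Tcrg-C only, 2.61 to 16.9 for the type 1 programme, -5.84 to 3.18 for type 17 and 2.01 to 3.54 for the naive programme. The cause of these changes was not tested. Precision is limited by 36 to 131 members a library and by transcripts of which a library holds few UMIs.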
